A study of Homo sapiens with 36 samples.

Results

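The comparison described here is between HEK293T cells that expressed wild-type TXNL1 (WT) and cells that expressed TXNL1 without its redox-active cysteines (SxxS), both without an oxidant. Its members are the 3 WT and 3 SxxS libraries labelled DMSO, 6 of the 36 messenger RNA libraries in the series, and they were chosen by those labels alone. HEK293T is a human embryonic kidney cell line that carries the SV40 large T antigen. All groups shared a TXNL1 knockout background, an isogenic line grown from 1 sorted cell, into which a lentiviral vector with a CMV promoter returned no protein (vector), WT TXNL1, SxxS TXNL1 or a variant that does not bind the proteasome (DR-RD). The same 4 lines were also given hydrogen peroxide or arsenite, again with 3 libraries per group. Each variant was 1 transduced line, so the effect of the variant and that of the line cannot be told apart. The labels do not say that replicates were separate cultures, so p-values measure the spread between libraries, which may be technical.

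TXNL1 is a thioredoxin-like protein of the cytosol and nucleus that binds the regulatory particle of the 26S proteasome next to the deubiquitinase PSMD14. Its N-terminal thioredoxin domain reduces disulfides through a pair of cysteines spaced by a pair of other residues, and its C-terminal PITH domain makes the contact with the proteasome. Serines in place of both cysteines remove the thiols that exchange with a disulfide, while the protein can still be made and can still bind. The comparison therefore asks which transcripts differ when the thioredoxin chemistry of TXNL1 is removed and no oxidant is given.

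The codons changed in SxxS are shown first because they define the comparison. In the reference coding sequence of TXNL1 (GENCODE release 44, GRCh38, minus strand of chromosome 18) exactly 1 pair of cysteine codons with this spacing lies in frame, at codons 34 and 37 counted from the start codon. The 30 bases around them, which span an intron between positions 56626436 and 56638350, read as follows with the cysteine codons in capitals.
TXNL1: atgagagggTGTgggccaTGTttgaggatt
This is the sequence of the endogenous gene, and the sequence of the introduced construct was not used here.

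The level of TXNL1 itself did not separate the lines. Levels are given in CPM, counts relative to library sizes scaled by TMM, a method that corrects for differences in RNA composition. TXNL1 measured 53.8, 52.7 and 58.8 CPM in the 3 WT libraries and 55.8, 54.3 and 52.2 CPM in the 3 SxxS libraries, so the groups overlapped. The mean was 55.1 ± 3.27 CPM in WT and 54.1 ± 1.81 CPM in SxxS (SD, n = 3), a log2 difference (SxxS minus WT throughout) of -0.03 with a 95% confidence interval of -0.15 to 0.10 and an adjusted p of 0.942 by edgeR's quasi-likelihood test. The vector line, which was given no TXNL1, still had 31.0 ± 1.84 CPM, and counts per gene do not tell the variants apart. PITHD1, the other human protein with a PITH domain, was at 53.3 ± 1.27 CPM in WT and 54.4 ± 2.55 CPM in SxxS. The proteasome subunits beside the binding site did not pass the test either. PSMD14, the deubiquitinase of the lid, had a log2 difference of -0.15 (SE 0.05, adjusted p = 0.190), PSMD1 one of -0.11 (adjusted p = 0.358) and PSMD4, a ubiquitin receptor, one of -0.09 (adjusted p = 0.639). PSMD14 was at 140.0 to 155 CPM in WT and at 133 to 136 CPM in SxxS.

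The 6 libraries held 42072410 to 78602699 counts, and none was a duplicate of another. VIM (456 to 520 CPM) and KRT18 (42.2 to 52.5 CPM) were abundant in all 6, as is known for HEK293T, while the blood marker HBB and the muscle marker MYH7 were at 0 counts. In the whole series 2 libraries, both of treated WT cells and neither in the comparison, stood apart: WT peroxide replicate 2 and WT arsenite replicate 1. Their GC-rich genes (the top decile by content of the bases G and C) exceeded their GC-poor genes (the bottom decile). The difference was 0.97 and 0.60 on the log2 scale, with each gene taken relative to its mean over libraries of the same treatment. Among the 6 libraries compared, the same measure was -0.15, -0.21 and -0.05 in WT and 0.02, 0.03 and 0.08 in SxxS, so the 2 groups did not overlap in it. That difference moves with the results below, and its part in them was not tested beyond the offset described with each.

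At an adjusted p under 0.05, 194 genes were higher and 3 were lower in SxxS than in WT (197 of 22486 tested, or 0.876%, with 0.863% higher and 0.0133% lower). Of these, 25 of the higher genes differed by at least 2-fold, and the 194 log2 differences ran from 0.21 to 2.80 with a median of 0.51. Over all genes tested the median was 0.00, and 2209 genes had an unadjusted p under 0.05, of which 1454 were higher in SxxS. The 3 libraries of SxxS lay above the 3 of WT for all 194 higher genes, as they did for 9.76% of all genes tested. The count depended on single libraries. It was 212 without WT replicate 1, 9 without WT replicate 2 and 43 without WT replicate 3. Without SxxS replicates 1, 2 and 3 it was 69, 18 and 91. Without vector replicates 1, 2 and 3 it was 206, 172 and 145. The DR-RD libraries enter only the estimate of the spread, and without replicates 1, 2 and 3 of that line it was 289, 146 and 458. When genes were tested against a log2 difference of 0.25 rather than 0, the 2 genes CFD and PCSK1N remained.

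CFD, which encodes complement factor D, the serine protease that activates the alternative complement pathway, was 1 of 6 genes that shared the smallest adjusted p. It was at 3.89, 3.48 and 3.67 CPM in WT and at 7.73, 8.32 and 6.96 CPM in SxxS, a log2 difference of 1.06 (95% confidence interval 0.77 to 1.34, adjusted p = 0.00237). Every SxxS library was above every WT library, as for all 194 higher genes, while the vector line averaged 7.17 CPM and DR-RD 7.23 CPM. PCSK1N encodes proSAAS, an inhibitor of the prohormone convertase PCSK1. Its level was low, 1.06, 0.937 and 1.03 CPM in WT against 2.95, 4.56 and 2.69 CPM in SxxS, and its log2 difference was 1.75 (SE 0.24, adjusted p = 0.00312). The SxxS libraries spread more widely than the WT libraries for this gene.

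JUN, a subunit of the AP-1 transcription factor, was among the abundant genes of the list, with 94.0, 89.0 and 89.6 CPM in WT and 117, 115 and 123 CPM in SxxS. The rise was 1.30-fold (log2 0.38, SE 0.06, adjusted p = 0.00312). H2AX, the histone variant that is phosphorylated around DNA breaks, rose 1.47-fold from 64.2 ± 3.92 to 94.5 ± 5.93 CPM (SD, n = 3, adjusted p = 0.00312 by edgeR). It is a histone gene with a polyadenylated transcript, and the replication-dependent histones are described with the lists below. HES4, a transcriptional repressor of the Hes family, rose 1.69-fold, from 6.01 ± 0.279 to 10.1 ± 1.16 CPM. ZNF503, a zinc finger repressor, rose 1.48-fold and was at 122, 111 and 116 CPM in WT and 165, 180.3 and 173 CPM in SxxS. The groups of these 4 genes did not overlap, which held for all 194 higher genes. It also held, with SxxS higher, for 9.76% of all genes tested.

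Other protein-coding genes near the top of the list were PPDPF, with 38.5, 29.8 and 32.8 CPM in WT and 51.1, 54.3 and 53.6 CPM in SxxS, and REX1BD, with 4.49 ± 0.371 against 8.50 ± 0.440 CPM. PDLIM7, a PDZ and LIM domain protein of the actin cytoskeleton, rose 1.34-fold, and SCAND1, a SCAN domain protein, rose 1.62-fold. The adjusted p of these 4 genes lay at 0.00237 for PPDPF and 0.00312 for the others. Without WT replicate 2, PDLIM7 had an adjusted p of 0.0556, and JUN, H2AX, PCSK1N and REX1BD each had 0.0534, while CFD, PPDPF, ZNF503, HES4 and SCAND1 remained called at 0.0406 to 0.0495.

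**Figure D1:**
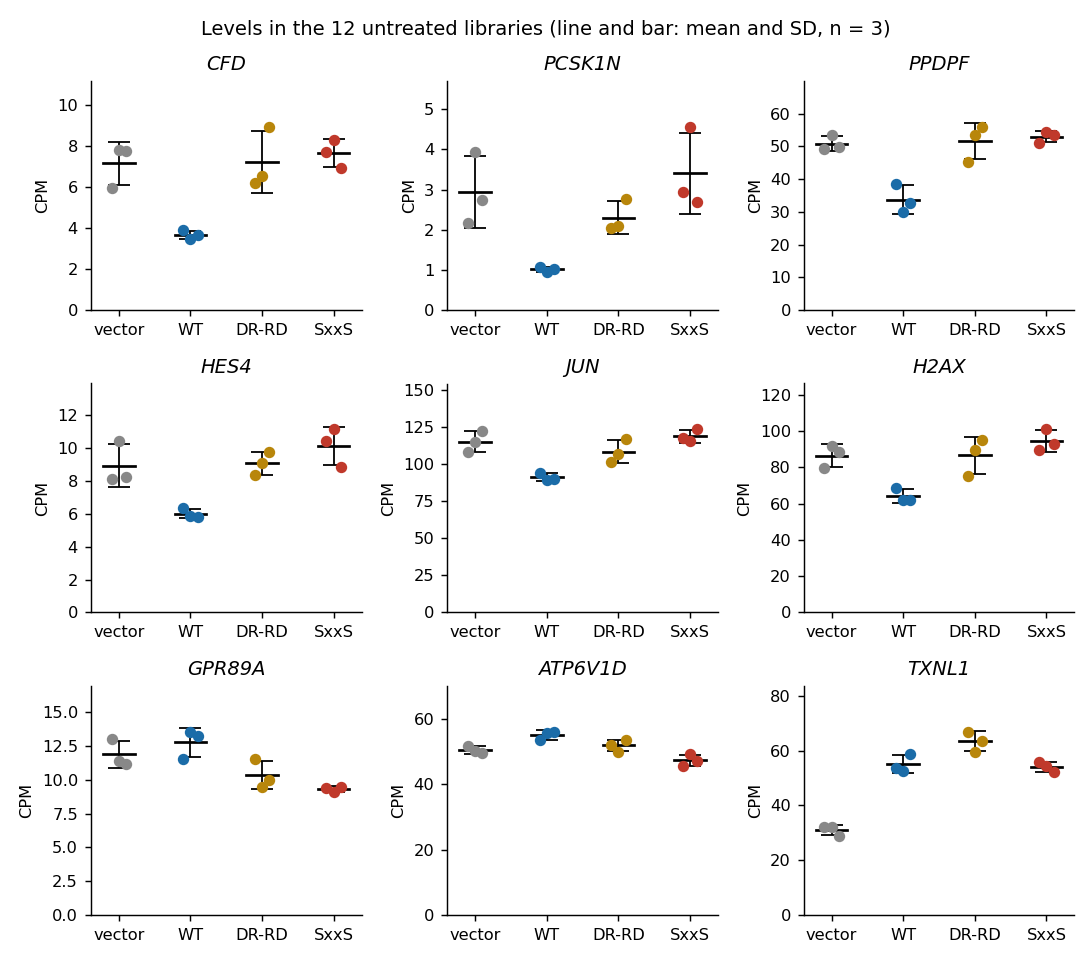
Levels in CPM (linear axes from 0) of 9 genes in the 12 untreated libraries, with 1 point per library and the mean and SD of the 3 libraries of each line. For the 6 genes higher in SxxS every SxxS point lies above every WT point, and for GPR89A and ATP6V1D every SxxS point lies below. For TXNL1 the WT and SxxS points overlap at 52.2 to 58.8 CPM. All genes shown but TXNL1 were chosen by this same contrast.

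Antisense and other noncoding genes were among those higher in SxxS, at about their share of all genes. Of the 194 genes 44 were lncRNAs (22.7%, against 21.9% of all genes tested). Another 143 were protein coding (73.7%, against 66.0%). STARD7-AS1 rose from 14.4 ± 1.37 to 22.6 ± 0.660 CPM (log2 0.65, adjusted p = 0.00237), while STARD7, which it overlaps, had a log2 difference of -0.01. CBR1-AS1 (log2 0.57) and ENSG00000289001 (log2 0.59) lie over the same bases of chromosome 21 and had near-equal values, while CBR1 at that site had a log2 difference of 0.09 and an adjusted p of 0.666. IER5L and IER5L-AS1 on chromosome 9 had 2 of the largest differences among genes of at least 1 CPM, 1.57 and 1.89. The 194 genes formed 176 separate loci, with 32 genes sharing 14 of them, and 125 of the 194 (64.4%) had an exon that overlapped another gene, against 57.1% of all genes tested. The libraries were strand specific by their label, but whether the counting used strand is not given in the sources used here, so reads of overlapping genes may be split or shared between them. The 9617 genes that overlap no other exon were also tested on their own, fewer than the 22486 of the main fit. Of these 59 were higher and 1 was lower.

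CDKN2B-AS1, the long noncoding RNA also called ANRIL, rose 2.29-fold, from 11.3, 8.29 and 10.2 CPM to 23.5, 25.9 and 19.2 CPM (adjusted p = 0.0255). It was chosen for description, like GARIN5A, because earlier results of these data had named it. CDKN2A, the neighbouring tumour suppressor gene whose exons it partly overlaps, was at 83.6, 72.3 and 83.4 CPM in WT and 136, 163 and 126 CPM in SxxS. Its SxxS libraries all lay above those of WT, as they did for 9.76% of all genes tested, and its adjusted p was 0.0713 by edgeR. GARIN5A was at 2.49, 2.64 and 2.76 CPM in WT and at 7.06, 8.81 and 5.74 CPM in SxxS (log2 1.45, adjusted p = 0.0351). Without WT replicate 2 the adjusted p of CDKN2B-AS1 was 0.122 and that of GARIN5A was 0.174, and without SxxS replicate 2 these were 0.122 and 0.131.

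Most of the 194 genes were rich in G and C. The median GC content of their exons was 64.0%, against 48.2% over all genes tested, and 137 of the 194 were in the GC-richest decile of genes, in which 6.12% of genes were higher in SxxS, with 30 more in the next decile. Others were not, such as CDKN2B-AS1 at 39.7%. In their coding sequences, 139 of which could be read from the reference, the median was 67.8% against 52.7% over 14612 genes, and at the third base of the codon it was 83.1% against 60%. Their genes were also short, with a median span of 7142 bases against 19641.5, and 54 of them (27.8%) lay on chromosome 19, against 6.82% of all genes tested. The promoters of the 121 genes matched in RefSeq (GRCh38.p14, 250 bases before to 50 after the start) had a median GC content of 69.0% and 30 CG pairs, against 65.0% and 25 over 12951 genes. The first 60 coding bases of 5 higher genes, and then of the 2 protein-coding genes that were lower, are shown with G and C in capitals. The median GC content of this window was 68.3% over the higher genes and 60% over all genes.
PPDPF: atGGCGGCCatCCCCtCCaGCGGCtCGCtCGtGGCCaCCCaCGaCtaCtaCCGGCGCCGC
HES4: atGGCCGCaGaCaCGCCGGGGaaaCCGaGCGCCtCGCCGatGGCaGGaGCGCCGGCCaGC
H2AX: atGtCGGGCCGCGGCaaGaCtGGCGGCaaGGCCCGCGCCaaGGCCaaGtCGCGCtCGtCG
JUN: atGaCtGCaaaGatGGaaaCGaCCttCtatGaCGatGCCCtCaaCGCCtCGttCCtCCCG
PCSK1N: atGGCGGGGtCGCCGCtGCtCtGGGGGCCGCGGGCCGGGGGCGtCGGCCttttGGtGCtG
GPR89A: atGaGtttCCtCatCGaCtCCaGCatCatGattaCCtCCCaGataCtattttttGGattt
ATP6V1D: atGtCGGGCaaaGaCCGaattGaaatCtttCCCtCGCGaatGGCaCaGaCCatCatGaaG
These windows, from GRCh38 with GENCODE release 44, lie at chr1:999914-999973 for HES4, chr11:119095335-119095394 for H2AX, chr1:58783011-58783070 for JUN and chrX:48835473-48835532 for PCSK1N, all on the minus strand. The windows of PPDPF (from position 63521309 to 63521516 of chromosome 20, plus strand), GPR89A (from 145608134 to 145616251 of chromosome 1, plus strand) and ATP6V1D (from 67353022 to 67359698 of chromosome 14, minus strand) span an intron. The GC content of the window was 78.3% in PCSK1N, 75% in HES4, 73.3% in PPDPF and H2AX and 53.3% in JUN, which was below the median of all genes, against 38.3% in GPR89A and 48.3% in ATP6V1D. The whole coding sequence of JUN had 64.5%.

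Because the WT and SxxS libraries also differed in how their counts followed GC content, the comparison was repeated with an offset for each library that removed its trend over GC. With the offset 53 genes were higher and 15 were lower in SxxS (0.302% of all genes tested, with 0.236% higher). All 53 were among the 194, and of the 194 the other 141 no longer passed. With the offset 192 of the 194 still had a positive difference, the median was 0.33, and 173 had an unadjusted p under 0.05. CFD (log2 0.90, adjusted p = 0.00161), JUN (0.35, adjusted p = 0.00170), ZNF503 (0.43, adjusted p = 0.00161), REX1BD (0.83, adjusted p = 0.00235), H2AX (0.31, adjusted p = 0.00386) and PCSK1N (1.44, adjusted p = 0.00260) kept their call. HES4 did not, at a log2 difference of 0.29 and an adjusted p of 0.185. IER5L (log2 1.37, adjusted p = 0.0566), GARIN5A (1.29, adjusted p = 0.0796) and CDKN2B-AS1 (1.22, adjusted p = 0.0893) did not pass either, at differences close to those without the offset. The 53 genes had a median exonic GC content of 60.4%. The 15 genes that were lower with the offset, 14 of which were not lower without it, had one of 66.0%. The count with the offset was 13 without SxxS replicate 2, 15 without WT replicate 2, 21 without WT replicate 3, 32 without SxxS replicate 1, 35 without SxxS replicate 3, 142 without WT replicate 1 and 196 without DR-RD replicate 3.

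**Figure D2:**
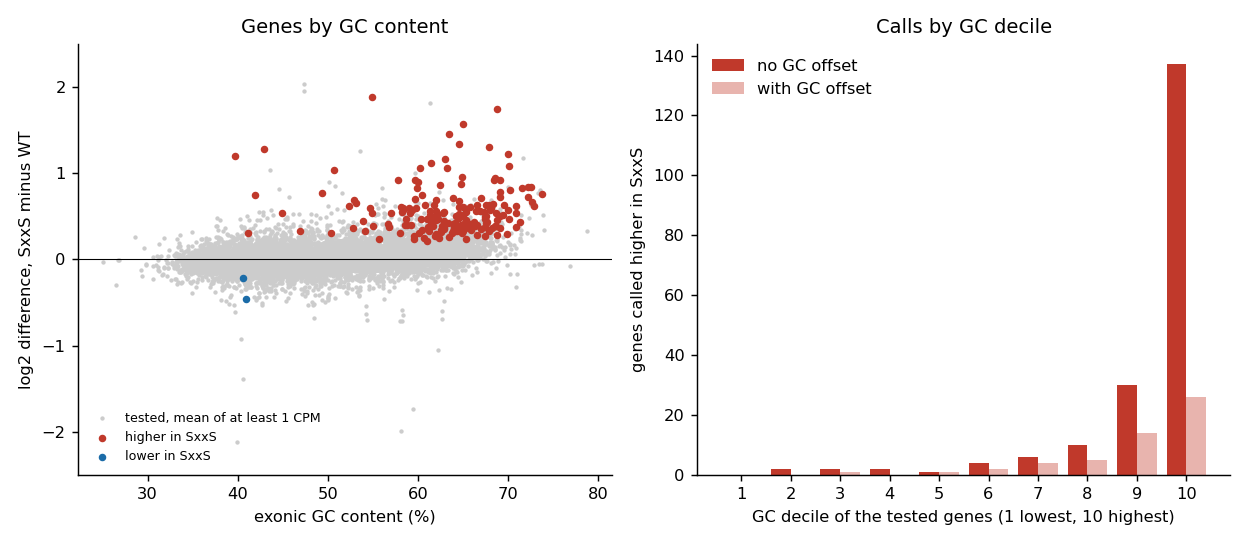
Left, log2 difference (SxxS minus WT, untreated) of each gene with a mean of at least 1 CPM against the GC content of its exons. Right, number of genes called higher in SxxS in each decile of the tested genes by GC content, without and with the GC offset. Of the 194 higher genes 137 fall in the richest decile, where the offset leaves 26.

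Only 3 genes were lower in SxxS. GPR89A, which encodes a Golgi pH regulator, was at 11.6, 13.6 and 13.2 CPM in WT and at 9.37, 9.07 and 9.47 CPM in SxxS, a log2 difference of -0.46 (SE 0.09, adjusted p = 0.0169), and it was also called with the GC offset (adjusted p = 0.0245). It has a near-identical copy, GPR89B, whose log2 difference was -0.33 with an adjusted p of 0.707, so its count is uncertain where reads could be split between the copies. ATP6V1D, a subunit of the proton pump that acidifies lysosomes, was at 55.1 ± 1.40 CPM in WT and 47.3 ± 1.72 CPM in SxxS (log2 -0.22, adjusted p = 0.0364), and with the GC offset the log2 difference was -0.19 and the adjusted p 0.154. Without WT replicate 2 the adjusted p was 0.125 for GPR89A and 0.203 for ATP6V1D. The lncRNA ENSG00000285761 had 5, 4 and 6 counts in the WT libraries and 0 in the 3 SxxS libraries. The pooled WT level was 6.55-fold a floor of 3 counts over the SxxS group, a value that rests on these few counts. Its adjusted p by edgeR was 0.0356, and 0.0606 with the GC offset. It was 0.136 without WT replicate 2 and 0.167 without SxxS replicate 2. The call was lost in 16 of 28 alternative settings.

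Lists of genes, some for the known roles of TXNL1 and others for general cell functions, held 1 gene called by edgeR. Over 24 lists, 443 different genes were tested and 1 was called, where 0.876% of all genes tested were called, so a list of this size would hold few calls at the share of all genes. An unadjusted p under 0.05 was found for 69 of the 443, beside 2209 of 22486 over all genes. DESeq2 called 14 of the 443, beside 360 of 22486 over all genes. Of the 20 tested members of the thioredoxin and glutaredoxin system, none was called, and the median log2 difference was -0.05. TXNRD3, a thioredoxin reductase, had the smallest p of that list, with a log2 difference of -0.18 and an adjusted p of 0.407. Among 20 peroxiredoxins, glutathione peroxidases, dismutases and catalase the median was -0.03, and the abundant peroxiredoxin PRDX1 was at 921 ± 79.5 CPM in WT and 852 ± 3.74 CPM in SxxS. GPX1 and GPX4, glutathione peroxidases whose exons are 63.7% and 67.3% GC, had log2 differences of 0.17 and 0.14 that did not pass, and that of GPX4 was -0.13 with the GC offset. Of 19 targets of NRF2, the transcription factor that answers electrophiles and oxidants, 7 had a positive and 12 a negative difference, and none was called.

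The proteasome lists showed small differences, mostly negative, that did not pass by edgeR. In the core particle 14 of 16 genes had a negative difference, with a median of -0.06, and PSMA4 was closest to the threshold at -0.15 (adjusted p = 0.150 by edgeR and 0.0462 by DESeq2). In the regulatory particle and its activators 30 of 36 were negative, also with a median of -0.06. Over all genes tested 11172 of 22486 differences were negative. MIDN, which encodes the ubiquitin-independent proteasome adaptor midnolin, was at 125 ± 12.5 CPM in WT and 149.1 ± 10.2 CPM in SxxS (log2 0.26, adjusted p = 0.128 by edgeR and 0.0494 by DESeq2). The 2 proteasome lists had a median GC content of 45.7% and 46.0%, below that of the genes tested. With the GC offset the median log2 difference was -0.05 in the core particle and -0.06 in the regulatory particle and activators.

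Stress response lists were also without a call by edgeR. The median log2 difference was -0.05 over 25 cytosolic chaperones, of which 17 had a negative and 8 a positive difference. An unadjusted p under 0.05 by edgeR was found for 11 of the 25, beside 2209 of 22486 over all genes. The median was 0.02 over 25 targets of ATF4 (the transcription factor of the integrated stress response). It was -0.01 over 26 genes of endoplasmic reticulum folding and disulfide formation. HSPA1B, an inducible HSP70, was nearest, at 1373 ± 68.9 CPM in WT and 1603 ± 91.7 CPM in SxxS (log2 0.22, adjusted p = 0.0849), and DESeq2 called it (adjusted p = 0.0395). MANF and SDF2L1, both of the endoplasmic reticulum, had log2 differences of 0.19 and 0.33 with adjusted p of 0.129 and 0.149 by edgeR, and DESeq2 called SDF2L1 (adjusted p = 0.0447). The 18 p53 targets had 9 positive and 9 negative differences.

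Of 21 immediate early genes, which respond within minutes to growth signals and stress, 1 was called by edgeR, JUN. JUNB (log2 0.36, adjusted p = 0.0836) and JUND (0.84, adjusted p = 0.159), which encode other AP-1 subunits, had differences of the same sign that did not pass by edgeR, while DESeq2 called both (adjusted p = 0.0283 and 0.0465). The list's median was 0.07. All 7 cyclin-dependent kinase inhibitors had a positive difference with a median of 0.15, but none was called by edgeR, and with the GC offset the median was 0.01. DESeq2 called CDKN2A (adjusted p = 0.000376). The 13 messenger RNAs encoded in mitochondrial DNA all had a negative difference, between -0.53 and -0.16 with a median of -0.33. None was called by edgeR, while 9 had an unadjusted p under 0.05. Mitochondrial counts made up 0.908%, 0.979% and 0.725% of the WT libraries and 0.726%, 0.749% and 0.662% of the SxxS libraries, so the groups overlapped. MT-CYB, of respiratory complex III, was at 555 ± 73.5 CPM in WT and 442 ± 12.1 CPM in SxxS with an adjusted p of 0.258 by edgeR and 0.0241 by DESeq2. Of 17 replication-dependent histones 9 had a positive difference and none was called.

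**Figure D3:**
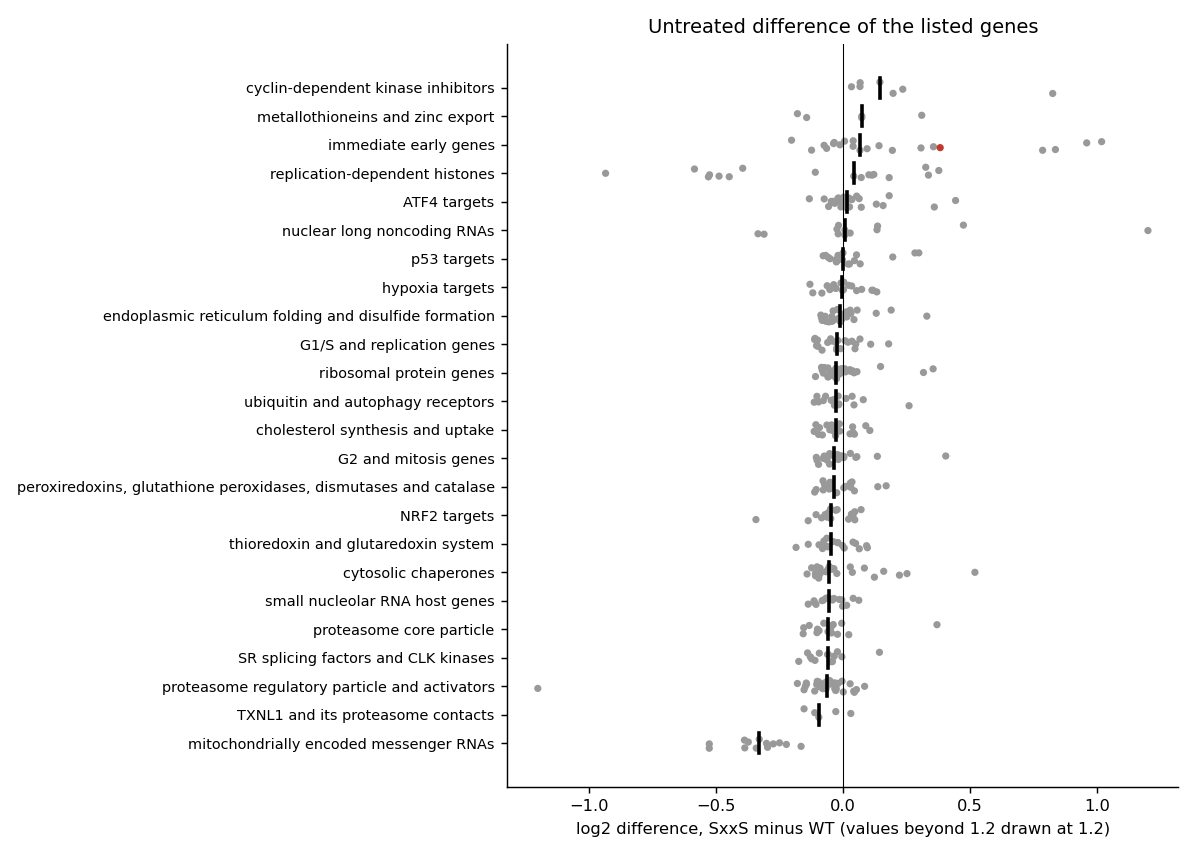
Log2 difference (SxxS minus WT, untreated) of each tested gene of 24 lists, with 1 point per gene, red where called, and a black bar at the list's median. The mitochondrially encoded messenger RNAs have a median of -0.33, the other medians lie within 0.15 of 0, and JUN is the 1 gene called by edgeR.

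In the other untreated lines the 194 genes were at levels nearer to SxxS than to WT. For 180 of the 194 genes the mean of the vector line lay above the midpoint of WT and SxxS, and for 169 the mean of DR-RD did, and neither line had a mean at or below WT for any of them. These comparisons share the WT or the SxxS libraries with the one that chose the genes, so their values are given side by side only. The median log2 difference of the 194 genes was 0.09 for SxxS minus vector, with 0 called (0.04% of all genes tested), and -0.42 for WT minus vector, with 85 called lower, where 0.729% of all genes tested were called lower. It was 0.40 for DR-RD minus WT, with 82 called higher (0.689% of all genes), and -0.10 for DR-RD minus SxxS, with 0 called (0.0178%). For the 2 counts of 0 by edgeR, 26 and 35 of the 194 had an unadjusted p under 0.05. GPR89A was at 11.9 ± 1.01 CPM in vector and 10.3 ± 1.06 CPM in DR-RD, between WT and SxxS.

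The same contrast in the treated cells used libraries that took no part in choosing the 194 genes. Under arsenite 1 gene was called with all libraries (0.00445%), and 124 of the 194 genes had a positive difference. Without WT arsenite replicate 1, the library that stood apart, 192 of the 194 were positive with a median of 0.26, against 51.0% positive and a median of 0.00 over all genes tested. In that fit 46 of the 194 were called higher and none lower, where 0.56% of all genes were called higher. CFD was called there too (log2 0.91, adjusted p = 0.000192), as were REX1BD (0.63, adjusted p = 0.00181), JUN (0.40, adjusted p = 0.0341), ZNF503 (0.25) and GARIN5A (1.01). H2AX, at a log2 difference of 0.23, was not called. When the GC offset was added to that fit, 176 were positive and 43 were called higher, against 0.716% of all genes.

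Under hydrogen peroxide the differences had the opposite sign. With all libraries edgeR called 0 genes, 1453 had an unadjusted p under 0.05, and 189 of the 194 genes had a negative difference, with a median of -0.48. Without WT peroxide replicate 2, 192 of the 194 were negative with a median of -0.33, while 50.3% of all genes tested were positive. In that fit 14 genes were called, all lower in SxxS (0.0623% of all genes), and 9 of them were among the 194. CBR1-AS1 and ENSG00000289001 were 2 of the 9, with log2 differences of -0.48 and -0.49. With the GC offset 177 of the 194 were negative and 0 genes were called, while 121 of the 194 had an unadjusted p under 0.05. All 53 genes called higher with the GC offset in untreated cells were positive under arsenite and negative under peroxide in the fits without the outlying library.

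CFD illustrates the order of the levels across treatments, on a scale common to all 36 libraries. It was at 7.21, 12.3 and 7.21 CPM in the WT peroxide libraries and at 5.56, 3.34 and 3.46 CPM in the SxxS peroxide libraries, so WT was above SxxS. Under arsenite it was at 10.9, 5.77 and 4.81 CPM in WT and 9.51, 10.8 and 8.92 CPM in SxxS, and only WT replicate 1 reached the SxxS libraries. JUN under arsenite was at 841, 842 and 803 CPM in WT and 1164, 1064 and 1029 CPM in SxxS, with SxxS above WT in every library. Under peroxide JUN was at 133, 132 and 136 CPM in WT and 128, 115 and 105 CPM in SxxS, with SxxS below.

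**Figure D4:**
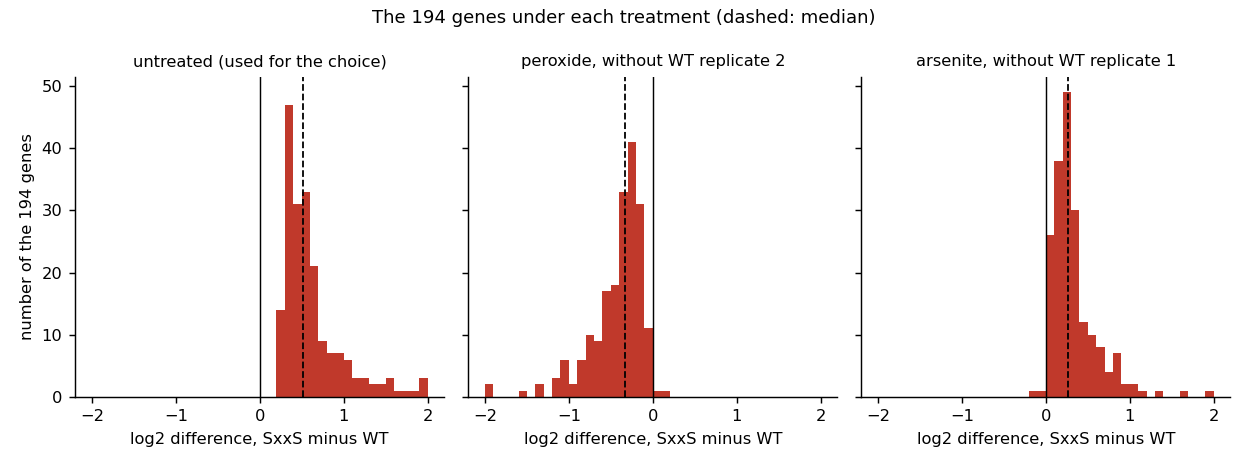
Histograms of the log2 difference (SxxS minus WT) of the 194 genes in untreated cells, which chose them, and in peroxide and arsenite without the outlying WT library, with values beyond 2 in the last bin and the median dashed. The medians are 0.51, -0.33 and 0.26.

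The difference between treatments was tested itself. Between arsenite and peroxide, neither of which chose the genes, the SxxS minus WT difference differed for 12 genes with all libraries (0.0534% of genes), 6 of them among the 194. Without both outlying libraries it differed for 323 genes (1.44%), and 110 of the 194 were among them, all with the larger value under arsenite. Between untreated and arsenite cells 0 genes differed by edgeR, with 2264 at an unadjusted p under 0.05, and 0 without WT arsenite replicate 1, with 1345. Between untreated and peroxide cells 319 genes differed with all libraries (1.42%), 154 of them among the 194. That test shares the untreated libraries with the choice of the genes.

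By library, deviations of the 194 genes were taken from their mean over libraries of the same treatment. Values of different treatments are therefore not on a common scale, and the treated means include the outlying WT libraries. The median deviation was -0.24, -0.40 and -0.36 in untreated WT and 0.14, 0.25 and 0.14 in untreated SxxS. It was 0.09, 0.58 and 0.15 in WT under peroxide and -0.07, -0.26 and -0.31 in SxxS under peroxide. Under arsenite it was 0.27, -0.11 and -0.22 in WT and 0.11, 0.14 and 0.03 in SxxS. The 3 untreated WT libraries lay below all other untreated libraries. The untreated WT and SxxS libraries chose the 194 genes, so the gap between these 2 groups was fixed by that choice. The SxxS peroxide libraries lay below those of WT and DR-RD under peroxide but overlapped those of the vector line. The difference between GC-rich and GC-poor genes moved with it in some groups and not in others. Under peroxide it was -0.02 and -0.02 in the WT libraries other than replicate 2 and -0.05, -0.22 and -0.05 in SxxS, which did not overlap. Under arsenite it was -0.08 and -0.10 in the WT libraries other than replicate 1 and -0.08, 0.03 and -0.07 in SxxS, which overlapped. In untreated DR-RD replicate 1 it was -0.13, below that of WT replicate 3 (-0.05), although the median of the 194 genes was -0.07 there. Its part in the treated differences was not tested beyond the offset.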

How the data were processed

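Messenger RNA of 36 HEK293T libraries was sequenced, and each library was assigned to its line, treatment and replicate from the labels. The authors aligned paired reads to GRCh38 with QuasR and deposited raw counts per gene, with no normalization. The annotation release, the use of strand and the counting of mates are not given in the sources used here. The submitters' processing notes name DESeq2. Its normalized values were not used.

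GENCODE release 44 held 61369 of the 61587 gene identifiers and gave symbols, positions, overlaps and GC content (known for 99.7% of tested genes). The study's filter, a summed count of 10 or more in the untreated vector line (3 libraries), kept 22486 genes. From the deposited counts, edgeR 4.0.16 with limma 3.58.1 in R 4.3.3 fitted the 12 untreated libraries with TMM scaling, 1 mean per group and robust quasi-likelihood dispersions (biological coefficient of variation 6.55%). The p-values were adjusted by Benjamini-Hochberg over all genes, with calls made below 0.05. Treated libraries were fitted apart, 12 per treatment. The GC offset was, per library, a natural spline (5 degrees of freedom) of log2 CPM deviations on GC content. DESeq2 1.42.0 was an alternative. The fit was tested on simulated data. No per-sample column was left unmatched (0).

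The 12-library fit, the genes and the lists were chosen with earlier results of these data known. Named genes are TXNL1, PITHD1, PSMD1, PSMD4 and PSMD14, the 10 smallest adjusted p in each direction, the 6 smallest among protein-coding genes without exon overlap at 5 CPM or more, the 3 largest differences at 1 CPM or more, called list members or else the 3 most abundant, GARIN5A and CDKN2B-AS1. Others (STARD7, CBR1, GPR89B, and list members with small p) were named after their values were seen.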

Additional observations from a re-analysis of the deposited data

Results flagged for a closer look

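The SxxS minus WT difference changed with treatment by a test of the interaction of line and treatment, added after seeing the data. Between untreated and peroxide cells, with all libraries, it differed for 319 genes, 317 of them with the larger value in untreated cells. Without WT peroxide replicate 2 it differed for 438 genes. Between arsenite and peroxide cells, without both outlying WT libraries, it differed for 323 genes, 261 of them with the larger value under arsenite. With all libraries it differed there for 12 genes.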

How the results depend on the processing

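The 197 calls became 360 with DESeq2 (325 higher in SxxS), 533 without a filter (460 higher) and 367 with only the 6 libraries compared. There were 31 with all 36 libraries and 432 with 34 libraries (367 higher, without the 2 outlying libraries). Among the 9617 genes without exon overlap 60 were called. Against a log2 difference of 0.25 there were 2 calls. There were 68 with the GC offset (53 higher), 101 with the GC offset and replicate block, and 115 with GC and length offsets (85 higher). The GC offset with 34 libraries gave 248 calls, 143 higher and 105 lower. These last 2 were chosen after seeing the data. Size factors of DESeq2, total counts, filterByExpr, halved counts and the length offset gave 190 to 255. Leaving out 1 library gave 9 to 458 calls, and with the GC offset 13 to 196. The replicate block gave 237, of which 185 were among the 197. Same-numbered WT and SxxS deviations correlated at 0.08, 0.08 and 0.17, each library best with its own number, but the samples share only a number. Under peroxide 0 calls became 0 to 14 when 1 library was left out. Under arsenite 1 call became 0 with the replicate block, 0 to 179 when 1 library was left out, and 410 with the GC offset without WT arsenite replicate 1. TXNL1 was not called under any alternative run. With each of the 20 called named genes counted in each alternative setting, there were 587 values. All 587 kept their sign, and the call was lost in 99. These settings mostly share the same libraries, so the values are not independent. The causes were not tested. Low counts limit lncRNAs of under 1 CPM.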

Other observations

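Families picked by their symbols after the values were seen were described without a test. Of 38 HOX cluster genes tested, which pattern the body axis, HOXA3, HOXB2 and HOXB6 were higher in SxxS (log2 0.53, 0.45 and 0.24), 35 had a positive difference, and the median was 0.14 at a median GC content of 55.1%. Of 4 LRFN genes, which encode synaptic adhesion proteins, LRFN1, LRFN3 and LRFN4 were higher (log2 0.63, 0.55 and 0.47), at a median GC content of 64.7%. Of 410 genes with ZNF symbols 11 were higher, and their median difference was -0.02. Of 21 subunits of the vacuolar proton pump, ATP6V0C was higher (log2 0.51) and ATP6V1D lower, and the median was -0.03. With the GC offset 1 HOX, 2 LRFN and 3 ZNF genes were called higher. Over 14794 protein-coding genes 143 were higher and the median was 0.00.

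MIF, which encodes a secreted cytokine, had a log2 difference of 0.92, its antisense gene MIF-AS1 one of 0.96 and the overlapping ENSG00000251357 one of 0.90. The 3 genes share bases on chromosome 22, so they may count the same reads. Just inside the threshold lay TBCB, a tubulin folding cofactor, with a log2 difference of 0.31, and just outside lay ISYNA1, an inositol synthase, with 0.27 and an adjusted p of 0.0520.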
